A study of Sus scrofa with 16 samples.

Results

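The comparison described here sets ovaries of the follicular phase against ovaries of the luteal phase, with sows of high and low fecundity pooled. It was made on all 16 RNA libraries of the series, 8 from each phase, chosen by the phase and fecundity given in the labels. The groups FH and FL were Canadian Large White sows of high and low fecundity killed in the follicular phase, 20 days after estrus, and LH and LL were sows of high and low fecundity killed in the luteal phase, 14 days after estrus, with 4 sows in each group. No sow was treated. Fecundity was set by the total number of piglets born, the sows were unrelated and multiparous, and the high-fecundity sows were on average of higher parity, so that the parts of fecundity and parity cannot be told apart. Each library came from the ovarian tissue of 1 sow. In such bulk tissue, fewer cells of a type and less RNA per cell cannot be told apart.

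After ovulation the ruptured follicles turn into corpora lutea, richly vascularised glands whose luteal cells take up cholesterol and make progesterone. Late in the cycle prostaglandin F2α acts through its receptor, PTGFR, to bring the corpora lutea to regression. In the follicular phase that follows, granulosa and theca cells of the growing follicles make estrogens under gonadotropin control, with the transforming growth factor β (TGFβ) family and hedgehog ligands among the signals exchanged between these cells and the oocyte.

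The values were FPKM, the fragments counted on a transcript scaled by its length and by the fragments of the library. The libraries were shallow in fragments assigned to the table, far below the reads sequenced. The steps between low FPKM values corresponded to 166000 to 305000 fragments per library, and 1 fragment on a transcript of 2000 nt was worth 1.85 to 3.47 FPKM. Depth did not separate the phases (234250 ± 46321 fragments in follicular and 214375 ± 38682 in luteal libraries, SD, n = 8 each, exact two-sided permutation p = 0.366). Transcripts at 0.5 FPKM or more numbered 8376 ± 1011 in follicular and 5905 ± 1441 in luteal libraries (SD, n = 8 each; exact permutation adjusted p = 0.00420 over the 3 library measures tested). The lowest, median and highest counts were 6899, 8514 and 9660 in the follicular phase and 4440, 5535 and 8132 in the luteal phase, so the phases overlapped. The 10 most abundant transcripts took 23.5% ± 1.90 of the fragments of follicular and 29.1% ± 3.35 of those of luteal libraries (SD, n = 8 each; exact permutation adjusted p = 0.00326). FPKM is scaled within a library, so a larger share for these leaves a smaller share for all others. The part of this in the differences below was not tested.

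The luteal library LH2 stood apart from its phase. For 22 of the 32 transcripts that were higher in the luteal phase in all 16 libraries, LH2 lay nearer to the follicular mean than to the mean of the other 7 luteal libraries, whereas the other luteal libraries did so for 0 to 6 of them. For the 180 follicular-high transcripts the contrast was smaller: LH2 lay nearer to the follicular mean for 90, LH3 for 71, LH4 for 49 and the others for 9 to 26. Among the 139 luteal-high transcripts called in a fit without LH2, this library fell within or below the follicular range for 135. Such a fit gains transcripts that the left-out library opposed, so this count is partly fixed by the choice. In the fits without them, LH3 did so for 9 of 24 and LH4 for 7 of 19. The other luteal libraries did so for 0 to 3, of 7 to 13 transcripts. The same measure for FH1, in the fit without it, was 164 of 213 follicular-high and 36 of 44 luteal-high transcripts, for FH3 143 of 213 and 33 of 43, and for FL4 86 of 114 and 9 of 19. LH2 was also the deepest luteal library, at 298000 fragments, and held the most detected transcripts of its phase. The part of depth in these positions was not tested, nor whether the sow of LH2 was at the stage its label gives, on which every luteal mean and the 212 calls below depend. In the follicular phase, FH1 lay nearer to the luteal mean for 16 of the same 32 transcripts, and the other follicular libraries for 1 to 5. Where LH2 set a luteal extreme, the adjusted p without it is given. Such a p shows 1 side only, since many of the same calls were lost without another library, as counts below show.

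The labels of the phases could be checked against few defining genes. Of 6 luteal cell markers, SCARB1, the receptor that takes up lipoprotein cholesterol, and PTGFR had a paired transcript. PTGFR was listed above 0 in all 8 luteal libraries, at 1.2, 4.52 and 23.1 FPKM (lowest, median and highest), and in 2 of 8 follicular libraries, at up to 8.22 FPKM, on 36 and 8 fragments. The follicular libraries above 0 were FH2 and FH4, at 8.22 and 5.41 FPKM, above every LH library (1.2 to 3.29 FPKM). The difference in log2(FPKM + 1) was -0.07 in high-fecundity and -3.79 in low-fecundity sows. PTGFR thus separated the phases in low-fecundity sows only and gave no check of the LH and FH labels. SCARB1 was above 0 in 5 luteal and 2 follicular libraries, on 24 fragments in all, too few libraries to be tested.

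A total of 5956 transcripts reached 0.5 FPKM in at least 8 of the 16 libraries and were tested on log2(FPKM + 1). Differences are follicular minus luteal on this scale, where low transcripts show less than their full change, and adjusted p are from limma with Benjamini-Hochberg adjustment. Of those tested, 212 or 3.56% had an adjusted p under 0.05 and are called here, 180 higher (3.02%) and 32 lower (0.537%) in the follicular phase, and 1606 had an unadjusted p under 0.05. In 10 of the 212 the adjusted p was under 0.01, and in 87 it was 0.04 or more. The 2 sets differed in abundance. The median luteal-high transcript drew 28.1 fragments from each luteal and 4.69 from each follicular library, and 18 of the 32 had a luteal mean of 100 FPKM or more. The 180 follicular-high transcripts rested on 5.25 fragments per follicular and 0.875 per luteal library, and 115 of them were listed at 0 in at least 4 luteal libraries.

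All transcripts together leaned toward the follicular phase, with a median difference of 0.62 and a positive value for 80.3%. Follicular libraries also had more detected transcripts and a lower share of abundant ones, as given above. The part of either in this lean was not tested. The split of the calls moved with the scaling. After median-ratio scaling the median fell to 0.36 and 35 of 83 calls (42.2%) were higher in the follicular phase, after quantile normalization it was 0.07 and 10 of 31 calls (32.3%) were, against 84.9% of calls as deposited. Of the 180 follicular-high transcripts the former called 35 again and the latter 10, and of the 32 luteal-high transcripts 29 and 20 were. Differences of single transcripts are to be read against the median of 0.62, and for some the difference relative to it is given. Among the 446 transcripts with a mean of 100 FPKM or more the median was lower, at 0.27. For abundant transcripts such as GSS and CYP21A2, the median of 0.62 may therefore take off too much. After median-ratio scaling these 2 differed by -2.985 and 1.007.

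**Figure D1:**
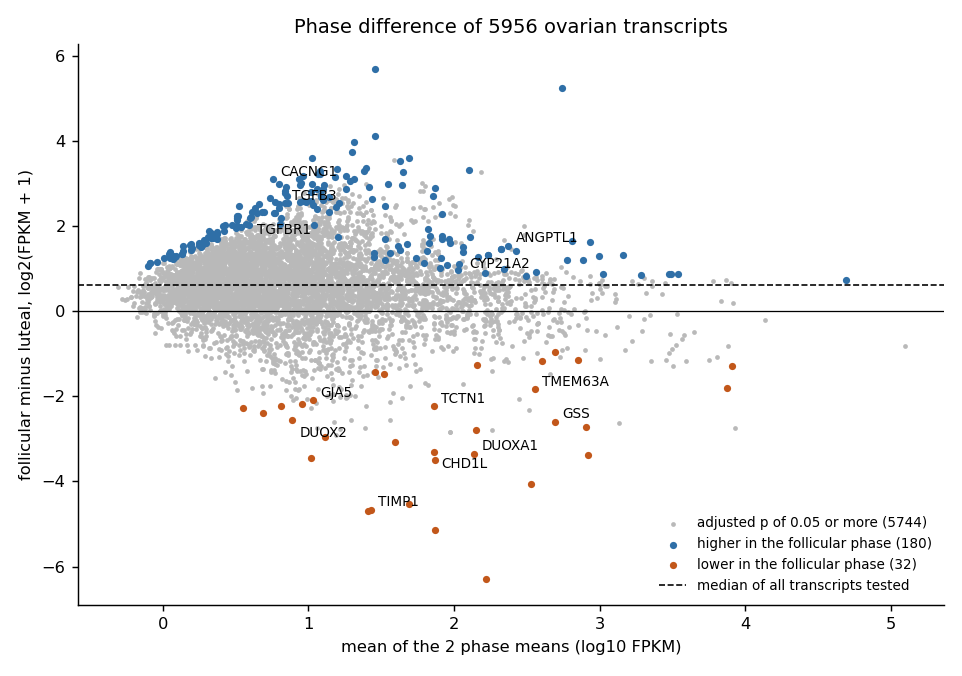
Each point is 1 of the 5956 transcripts tested, placed by the mean of the 2 phase means (log10 FPKM, x axis) and by the follicular minus luteal difference in log2(FPKM + 1) (y axis). The 180 follicular-high calls (blue) line the upper edge, many of them at low abundance, and the 32 luteal-high calls (orange) lie lower and include abundant transcripts. The dashed line marks the median of 0.62.

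The number of calls rested on single libraries. Without LH2, 787 of 5467 transcripts (14.4%) were called, 648 higher and 139 lower in the follicular phase, among them 173 of the 180 and 31 of the 32. Leaving out LH3, LH4, FH1 or FH3 left between 158 and 257 calls. Without FL4 there were 133, without FH4 97, without LL4 92, without FL1 74, without FH2 63, without FL2 57 and without FL3 31, and without LH1, LL1, LL2 or LL3 between 13 and 27. The phases did not overlap for 10 transcripts (0.168%), 8 of them called, or for 92 (1.54%) with LH2 set aside. Under every alternative setting and every left-out library in which they could be tested, 11 of the 212 were called, 3 higher and 8 lower. Those 8 included GSS and TIMP1, and the other 9 transcripts had no paired gene symbol. Of the 11, TIMP1, ENSSSCT00000007316 and ENSSSCT00000011384 could be tested in only 8 of the 16 fits that left out a library. The filter dropped them whenever a library at 0.5 FPKM or more was left out, so their dependence on such a library could not be tested.

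**Figure D2:**
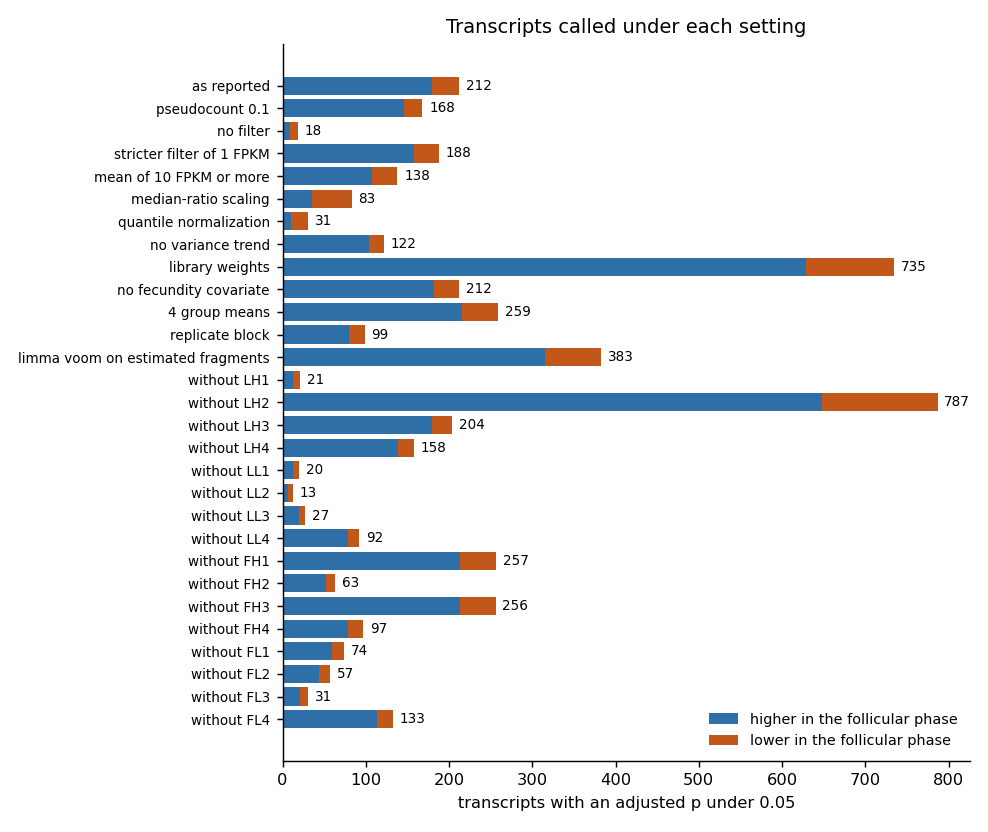
Bars give the number of transcripts with an adjusted p under 0.05 (x axis) in the fit as reported (212), under each alternative setting and without each library in turn, split into higher (blue) and lower (orange) in the follicular phase. The count ran from 13 without LL2 to 787 without LH2, and under the 2 other scalings the orange part outweighed the blue.

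Enzymes of glutathione and ubiquinone synthesis (GSS and COQ6) and of hydrogen peroxide release (DUOX2 with DUOXA1, which were in none of the lists) were among the luteal-high transcripts. GSS (ENSSSCT00000007972), glutathione synthetase, which completes the synthesis of the antioxidant glutathione, was listed at 90.9, 932 and 1621 FPKM (lowest, median and highest) in luteal and at 81.4, 115 and 145 FPKM in follicular libraries, on 6235 and 937 fragments. LH2 held the lowest luteal value, inside the follicular range, and the other 7 luteal libraries ran from 331 to 1621 FPKM, above every follicular library. The difference was -2.60 (SE 0.41; adjusted p = 0.00465), or -3.22 relative to the median, and it was called under all 12 alternative settings and without any one library (adjusted p = 1.92e-06 without LH2).

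DUOX2 (ENSSSCT00000005164), an NADPH oxidase that releases hydrogen peroxide, and DUOXA1 (ENSSSCT00000005163), a factor needed to mature this kind of oxidase, are encoded close to each other, with only DUOXA2 between them in the RefSeq gene table of the Sscrofa11.1 assembly. DUOXA1 was listed at 0, 197 and 711 FPKM in luteal and at 3.30, 9.89 and 30.6 FPKM in follicular libraries. Its only luteal value at 0 was that of LH2, and the other 7 ran from 44.0 to 711 FPKM, above every follicular library. The difference of -3.36 (SE 0.89; adjusted p = 0.0451) had an adjusted p of 8.91e-05 without LH2, but lay above 0.05 without any one of 14 other libraries. DUOX2 stood lower, at 0, 8.90 and 46.4 FPKM in luteal and 0, 0.29 and 2.66 in follicular libraries, a difference of -2.57 (SE 0.68; adjusted p = 0.0451) on 134 and 6 fragments. LH4 and LH3 lay within the follicular range of DUOX2.

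COQ6 (ENSSSCT00000002618), a monooxygenase of ubiquinone synthesis, was listed at 4.84, 12.7 and 31.4 FPKM in luteal and at 0, 1.95 and 17.0 FPKM in follicular libraries, with the phases overlapping through FL2 and FL4. The difference was -2.19 (SE 0.59; adjusted p = 0.0457), on 47 and 14 fragments, and it was called in 3 of the 16 fits that left out a library. Unlike GSS, it was larger in high-fecundity sows (-3.37) than in low-fecundity sows (-1.0), although the difference between the 2 levels did not pass the test (interaction adjusted p = 0.592).

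Matrix and vessel genes contributed TIMP1 and GJA5. TIMP1 (ENSSSCT00000013426), an inhibitor of the metalloproteinases that remodel extracellular matrix, was listed at 0, 50.8 and 109 FPKM in luteal libraries and at 0 in 7 of 8 follicular libraries, with 10.8 FPKM in FH1, on 57 and 2 fragments. LH2 was the only luteal library at 0, and the others ran from 30.7 to 109 FPKM. The difference of -4.66 (SE 0.82; adjusted p = 0.00811) was called under all 12 alternative settings, and without LH2 its adjusted p was 2.26e-05. GJA5 (ENSSSCT00000007335), the endothelial gap junction protein connexin 40, was listed at 7.03, 14.5 and 35.8 FPKM in luteal and at 0, 3.36 and 9.75 FPKM in follicular libraries (difference -2.10, SE 0.54, adjusted p = 0.0403). FL1 alone reached into the luteal range, above LL4 and LH2.

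Among genes of cell structure and division, TCTN1 (ENSSSCT00000010769), a protein at the base of cilia, was listed at 13.9, 133 and 211 FPKM in luteal and at 8.56, 19.0 and 53.9 FPKM in follicular libraries (difference -2.23, SE 0.51, adjusted p = 0.0316, and 0.00163 without LH2). LH2 and LH4 lay within the follicular range. TCTN1 was called in 8 of the 16 fits that left out a library. TACC3 (ENSSSCT00000009494), which stabilises the mitotic spindle, was listed at 21.0, 55.0 and 71.5 FPKM in luteal and at 6.04, 12.7 and 44.2 FPKM in follicular libraries (difference -1.47, SE 0.39, adjusted p = 0.0451). It was the only called transcript of 22 tested in the cell division list.

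CHD1L (ENSSSCT00000007340), a chromatin remodeller of DNA repair, was listed at 29.5, 53.5 and 655 FPKM in luteal and at 1.98, 5.50 and 44.2 FPKM in follicular libraries (difference -3.30, SE 0.62, adjusted p = 0.0129, and 0.00245 without LH2, the lowest luteal library). The highest value was that of LH3, and without FL2 every follicular library lay below every luteal one. It was called without any one library. In Sscrofa11.1 CHD1L and GJA5 lie close together, with 4 other genes between them.

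TMEM63A (ENSSSCT00000011876), a mechanically gated ion channel, was the luteal-high transcript with a symbol that rested on the most fragments, 6564 in luteal and 2130 in follicular libraries. It was listed at 55.8, 544 and 968 FPKM in luteal and at 52.8, 112 and 407 FPKM in follicular libraries (difference -1.83, SE 0.48, adjusted p = 0.0429; -2.22 and 0.00182 without LH2). LH2, at 55.8 FPKM, was the lowest luteal and FH1, at 407, the highest follicular library. LSM1, a factor of messenger RNA decapping, and INPP5J, an inositol phosphatase, had differences of -1.27 (SE 0.33) and -2.23 (SE 0.61), with adjusted p of 0.0449 and 0.0482, and of 0.00997 and 0.0149 without LH2, the lowest luteal library of both. Both overlapped between the phases. Of the 12 luteal-high transcripts with a symbol, GSS and CHD1L alone were called without LL2, and TIMP1 then had too few values to be tested. Among the 16 fits that left out a library, TMEM63A was called in 4, LSM1 in 6 and INPP5J in 2.

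The luteal-high transcripts with the smallest p beside GSS had no paired symbol. ENSSSCT00000033896 was listed at 9.15, 41.0 and 109 FPKM in luteal libraries and at 0 in 7 follicular libraries, with 23.4 FPKM in FH4 (difference -4.69, SE 0.66, adjusted p = 0.00181). ENSSSCT00000005528 was listed at 31.6, 159 and 208 FPKM in luteal libraries and at 0 in 5 follicular libraries, with 22.3 to 30.6 FPKM in the other 3, so that the phases did not overlap (difference -5.13, SE 0.82, adjusted p = 0.00465, and 0.000872 without LH2). The lowest luteal value of the former was in LL3 and that of the latter in LH2.

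**Figure D3:**
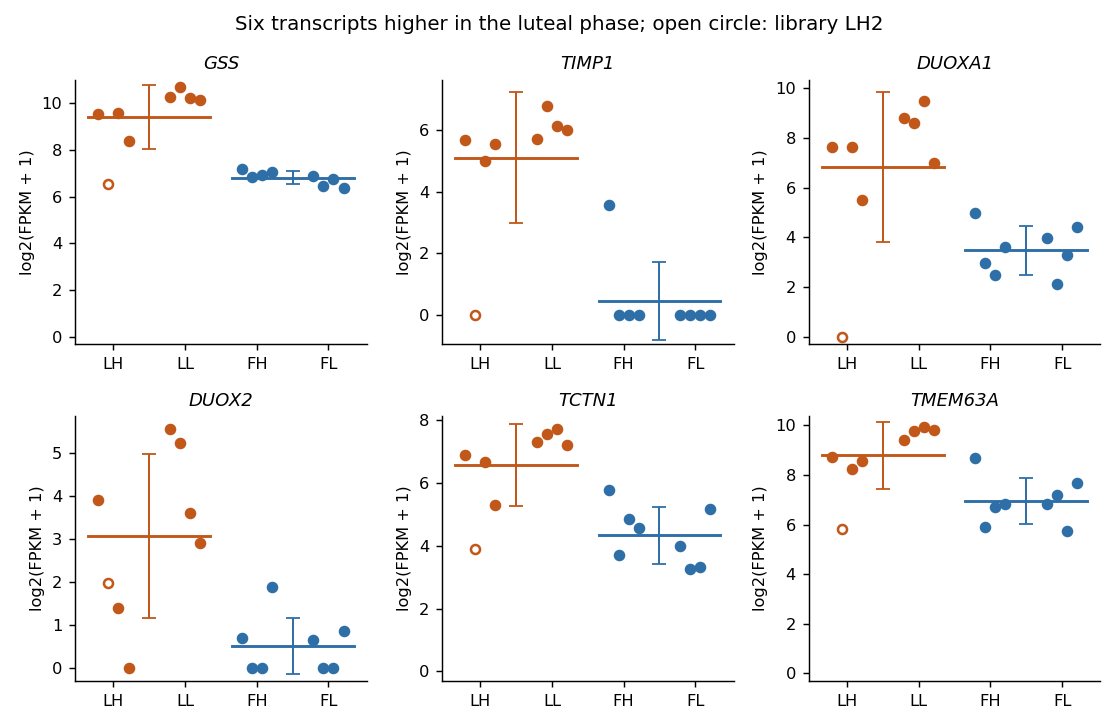
Points are the 16 libraries by group (x axis) for 6 transcripts called higher in the luteal phase, in log2(FPKM + 1) (y axis); bars are the mean ± SD of the 8 libraries of each phase. The open circle is LH2, which lay within or below the follicular range for all but DUOX2, where LH4 and LH3 did.

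Of the 7 list members that were higher in the follicular phase, TGFB3, TGFBR1, SMO and PTGIR encode a ligand or receptors of intercellular signalling, and all 4 stood at low levels. TGFB3 (ENSSSCT00000035269), a ligand of the TGFβ family, was listed at 4.44, 11.5 and 20.3 FPKM in follicular and at 0, 0.79 and 10.01 FPKM in luteal libraries, on 74 and 12 fragments. LH3 alone among luteal libraries reached into the follicular range, above FH1, FH2 and FH4. The difference was 2.53 (SE 0.60; adjusted p = 0.0358), or 1.92 relative to the median. TGFBR1 (ENSSSCT00000036612), the type I receptor for TGFβ, was listed at 2.51, 5.79 and 15.1 FPKM in follicular libraries and at 0 in 6 luteal libraries, with 6.16 and 2.50 FPKM in LH3 and LH4 (difference 2.19, SE 0.57, adjusted p = 0.0428). SMO (ENSSSCT00000018039), the signal transducer of the hedgehog pathway, was above 0 in 7 follicular libraries, at up to 7.58 FPKM, and in 1 luteal library, at 2.55 FPKM (difference 1.74, SE 0.46, adjusted p = 0.0446). These values rested on 31 and 2 fragments.

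Of the gonadotropin, prostaglandin and cAMP list, NR4A3 and PTGIR were called. NR4A3 (ENSSSCT00000005925), an orphan nuclear receptor induced rapidly by cAMP, was listed at 1.35, 3.21 and 4.88 FPKM in follicular and at 0, 0 and 1.38 FPKM in luteal libraries, where only LH2 reached the lowest follicular value (difference 1.55, SE 0.36, adjusted p = 0.0358, on 29 and 4 fragments, and 0.00739 without LH2). PTGIR (ENSSSCT00000026559), the prostacyclin receptor, was above 0 in 7 follicular libraries and in LH2 alone among luteal libraries (difference 1.31, SE 0.36, adjusted p = 0.0475, on 15 and 2 fragments). Without LH2 PTGIR was above 0 in no luteal library and had too few values to be tested.

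The 2 called list members that rested on more fragments were CYP21A2 and ANGPTL1. CYP21A2 (ENSSSCT00000034049), steroid 21-hydroxylase, which turns progesterone into 11-deoxycorticosterone, was listed at 65.1, 143 and 388 FPKM in follicular and at 29.9, 57.8 and 113 FPKM in luteal libraries, on 526 and 183 fragments. The phases overlapped, and the difference was 1.39 (SE 0.36; adjusted p = 0.0428), or 0.77 relative to the median. ANGPTL1 (ENSSSCT00000016909), a secreted protein related to the angiopoietins, was listed at 211, 311 and 618 FPKM in follicular and at 42.8, 99.2 and 358 FPKM in luteal libraries, on 1012 and 419 fragments (difference 1.54, SE 0.36, adjusted p = 0.0358). LH2 held the highest luteal value, and the other 7 luteal libraries lay at or below 209 FPKM, below every follicular library. Without LH2 the adjusted p of ANGPTL1 was 0.00243. Among the 16 fits that left out a library, ANGPTL1 was called in 9 and NR4A3 in 10. None of these 7 list members was called under either scaling, median-ratio or quantile (adjusted p between 0.0525 and 0.139, and between 0.0768 and 0.423), although each kept its direction.

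**Figure D4:**
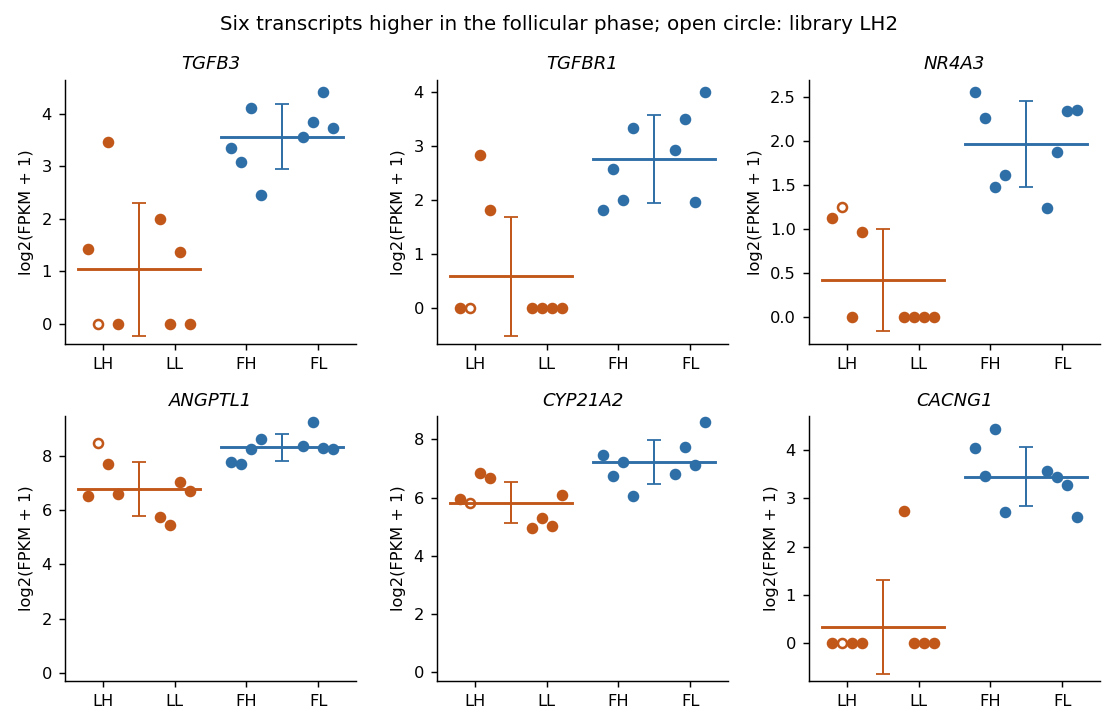
The 16 libraries by group (x axis) for 6 transcripts called higher in the follicular phase, in log2(FPKM + 1) (y axis), with the mean ± SD of the 8 libraries of each phase; the open circle is LH2. Most luteal libraries were at 0 for TGFBR1, NR4A3 and CACNG1, while ANGPTL1 and CYP21A2 were present in all 16.

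Outside the lists, CACNG1 (ENSSSCT00000018801), an auxiliary subunit of the skeletal muscle calcium channel, had the smallest p among follicular-high transcripts with a symbol. It was listed at 5.07, 9.97 and 20.6 FPKM in follicular libraries and at 0 in 7 luteal libraries, with 5.62 FPKM in LL1 (difference 3.10, SE 0.54, adjusted p = 0.00811). The call held without any one library, but not after quantile normalization (adjusted p = 0.0504), and the values rested on 18 fragments and 1 fragment. ARHGAP9 (ENSSSCT00000000472) was listed at 56.2, 88.3 and 129 FPKM in follicular and at 4.03, 34.5 and 85.0 FPKM in luteal libraries (difference 1.92, SE 0.46, adjusted p = 0.0379), on 966 and 370 fragments. GDPD5, a glycerophosphodiester phosphodiesterase, B3GNT5, a glycosyltransferase of glycolipid synthesis, and MATN2, an extracellular matrix adaptor, were called at the same adjusted p, with differences of 1.36 (SE 0.33), 1.57 (SE 0.38) and 2.87 (SE 0.70). All 3 overlapped between the phases. LH2 held the highest luteal value of ARHGAP9, GDPD5 and B3GNT5, whose adjusted p without it were 0.00841, 0.00622 and 0.00642. These 3 were called in 9, 7 and 5 of the 16 fits that left out a library.

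Several follicular-high names belong to families of similar sequences, for which reads may be shared. CH242-142L3.2 and CH242-142L3.11, named after a clone, held the same values in all 16 libraries and count as 1 measurement (difference 1.46, SE 0.29, adjusted p = 0.0208; 196 to 381 FPKM in follicular and 44.8 to 333 FPKM in luteal libraries). CH242-378F17.1, also named after a clone, had a difference of 2.57 (SE 0.56; adjusted p = 0.0289). OR1I1, an olfactory receptor, and IFN-OMEGA-6, an interferon, had differences of 3.05 (SE 0.65; adjusted p = 0.0289) and 1.63 (SE 0.40; adjusted p = 0.0379), and both come from large multigene families. These assignments are uncertain.

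Of the follicular-high transcripts without a symbol, ENSSSCT00000007316 had the smallest p of all (adjusted p = 2.71e-07), with 24.4, 46.3 and 119 FPKM in follicular libraries on 113 fragments. Every one of the 8 luteal libraries held a 0 for it. A transcript at 0 throughout a phase entered the test only if it reached 0.5 FPKM in all 8 libraries of the other, so this transcript had to differ to be tested. CACNG1, SMO, PTGIR, TIMP1 and ENSSSCT00000033896 were each at 0 in 7 libraries of the phase where they were lower. They passed the filter mainly through the phase where they were higher, which limits what their p can show. The same limit applies to TGFBR1, at 0 in 6 luteal libraries, and to NR4A3, MATN2 and ENSSSCT00000026166, at 0 in 5. It also applies to ENSSSCT00000005528, at 0 in 5 follicular libraries, and to the 115 of 180 follicular-high transcripts at 0 in at least 4 luteal libraries. ENSSSCT00000026166 was listed at 9.95, 33.8 and 57.6 FPKM in follicular libraries and at 0 in 5 luteal libraries, with up to 12.8 FPKM in the other 3 (difference 3.75, SE 0.66, adjusted p = 0.00811).

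Of the 181 tested transcripts that belonged to 14 gene lists, 12 were called, 7 higher and 5 lower in the follicular phase. Over all transcripts tested 3.56% were called, and 66 of the 1526 with a symbol, 54 higher and 12 lower. The lists were chosen with earlier results of these data known, and some symbols came from transcripts that differed in these samples. The shares below are therefore a description and no test of a list. In the list of granulosa and theca cells and follicle growth, 3 of 19 tested transcripts rose (TGFB3, TGFBR1 and SMO) and none fell, beside 3.02% higher and 0.537% lower over all transcripts, with a median difference of 0.80 against 0.62 over all transcripts. In the gonadotropin, prostaglandin and cAMP list 2 of 12 rose, with a median of 0.75. Both medians lay within 0.19 of that of all transcripts. The list of cholesterol supply and steroid hormone synthesis had 1 call of 14 (CYP21A2, which acts outside the route to progesterone and estrogens), with a median of 0.47. STAR, CYP11A1, HSD3B1, CYP19A1, FSHR and LHCGR had no paired transcript.

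Of the lists with lower members, to be read beside the same 0.537%, that of glutathione, ubiquinone and redox enzymes had 2 of 13 (GSS and COQ6), with a median of 0.32, and in the extracellular matrix list 1 of 33 fell (TIMP1), with a median of 0.50. The blood vessel list had 1 call in each direction of 18 (ANGPTL1 higher and GJA5 lower), with a median of 0.43. The cell division list, with 1 fall of 22 (TACC3), had a median of 0.49. No transcript was called among 17 of leukocytes (median 0.87), 14 of nuclear-encoded mitochondrial energy metabolism (0.40), 11 of ribosomal proteins and translation (1.21), 5 of smooth muscle (0.22), 2 encoded by mitochondria (-1.0), or the 1 each of oocytes and erythroid cells, by the limma fit of all libraries. Of these 51 transcripts 14 had an unadjusted p under 0.05, and 4 were called with voom, 2 of them mitochondrially encoded and 2 of the translation list. Without LH2 the lists held 31 calls among 171 transcripts tested, beside 14.4% of all transcripts in that fit. Of the 31, 16 were higher and 15 lower in the follicular phase. The vessel list then had 4 lower, EGFL7 and STAB1 (-2.01 and -1.22) among them, and 1 higher of 16. Only 5 of its 16 differences were negative, and its median was 0.38. The translation list had 4 higher of 11 (EIF3M, EIF4A1, EIF4EBP3 and GSPT1) and 0 lower. The matrix list had 3 higher and 2 lower of 31, and the cell division list 1 higher and 3 lower of 21. Single genes here were named after their values were seen.

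Marker lists of other cells were followed as summed FPKM over their paired transcripts. Blood vessel genes summed to 556, 803 and 1732 FPKM (lowest, median and highest) in follicular and to 639, 1617 and 2935 FPKM in luteal libraries, with LH2 lowest among the latter. EGFL7 (means of 269 and 650 FPKM in follicular and luteal libraries) and ENTPD1 (79.1 and 575 FPKM) made up most of the luteal sum, while 13 of the 18 tested vessel transcripts had a positive difference. Leukocyte genes summed to 269, 402 and 749 FPKM in follicular and 139, 294 and 425 FPKM in luteal libraries. Granulosa, theca and follicle growth genes summed to 891, 1521 and 2238 FPKM in follicular and 706, 1261 and 2199 FPKM in luteal libraries, of which BMP6 alone, a growth factor of the TGFβ family, had means of 1422 and 1192 FPKM, so that this sum mostly follows 1 gene. Smooth muscle genes summed to 23.4, 44.7 and 92.5 FPKM in follicular and 21.2, 25.9 and 36.8 FPKM in luteal libraries. The phases overlapped in each sum. Oocyte and erythroid genes reached at most 42.5 and 22.2 FPKM in any library. The part of cell makeup in the differences of single genes was not tested.

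**Figure D5:**
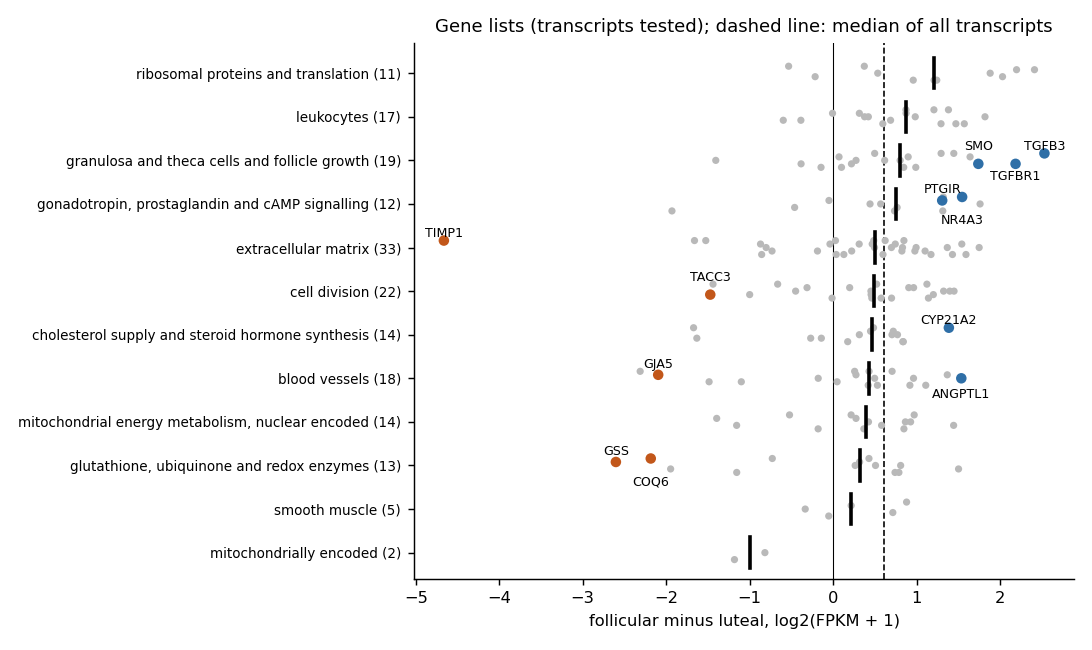
Follicular minus luteal differences in log2(FPKM + 1) (x axis) of the tested transcripts of 12 gene lists (y axis, with the number tested); black bars are list medians, the dashed line is the median of 0.62 over all transcripts, and coloured points were called. List medians run from -1.0 for the 2 mitochondrially encoded transcripts to 1.21 for ribosomal proteins and translation.

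Some genes were followed whether called or not. PTGFR differed by -1.93 (SE 0.69; adjusted p = 0.0988), and its adjusted p was 0.0479 without LH2. ENTPD1, an ectonucleotidase of endothelium that degrades extracellular ATP, was listed at 38.9, 469 and 1483 FPKM in luteal and 19.6, 48.5 and 241 FPKM in follicular libraries (difference -2.31, SE 0.69, adjusted p = 0.0634, and 0.0175 without LH2). ND4 and ND6, mitochondrially encoded subunits of respiratory complex I, differed by -1.18 (SE 0.37; adjusted p = 0.0716) and -0.82 (SE 0.30; adjusted p = 0.109). LH2 held the lowest luteal value of each, 893 FPKM for ND4 and 32444 FPKM for ND6, and without it both passed the test (adjusted p = 0.00213 and 0.00444). ND6 was listed far above ND4, at means of 82704 against 2148 FPKM in follicular and 168173 against 5679 FPKM in luteal libraries. The cause of this gap was not tested. Whether counting used strand is not given, so what the ND6 value measures is uncertain.

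GATA4, a transcription factor of granulosa cells, was above 0 in 7 follicular and 3 luteal libraries (difference 1.64, SE 0.65, adjusted p = 0.127, and 0.0277 without LH2, its highest luteal library at 10.9 FPKM). It was called in 1 of the 16 fits that left out a library. GATA6, a related factor, and the proliferation marker MKI67 had differences of 0.22 and 0.91 (SE 0.53 and 0.51; adjusted p = 0.805 and 0.254), and that of GATA6 turned negative after quantile normalization. FDXR, TSPO, FOXL2, GDF9 and PECAM1 were above 0 in 1 to 6 libraries each, on 1 to 27 fragments, too few to be tested.

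The phase difference was also computed within high-fecundity sows (FH against LH) and within low-fecundity sows (FL against LL). Among the called transcripts, which were chosen on the mean of both levels, it was larger in low-fecundity sows for 138 of the 180 follicular-high and 26 of the 32 luteal-high ones, as a description. Over all tested transcripts the median difference was 0.36 in high-fecundity and 0.83 in low-fecundity sows, with LH2 belonging to the former. For GSS it was -1.50 and -3.70, for TCTN1 -0.95 and -3.51, and for DUOXA1 -1.69 and -5.03, while TMEM63A differed by -0.80 and -2.87. CHD1L differed by -3.97 and -2.64.

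Tested directly, no transcript of 5956 had an interaction of phase with fecundity at an adjusted p under 0.05 by limma (smallest 0.132), and 495 had an unadjusted p under 0.05. With limma voom on estimated fragments 7 were called. The smallest p belonged to FTL and ENTPD1, with a more positive phase difference in high-fecundity sows (0.85 against -4.75, and -0.09 against -4.53; adjusted p = 0.132 and 0.169), and in the other direction to IFN-DELTA-7 (-1.12 against 6.06; adjusted p = 0.132) and ENSSSCT00000007669 (0.96 against 4.99; adjusted p = 0.169). IFN-DELTA-7 belongs to a family of similar interferon genes. GSS, TIMP1, CHD1L and TGFB3 had interaction adjusted p of 0.373, 0.627, 0.810 and 0.849.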

How the data were processed

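Ovarian RNA of 16 sows was depleted of ribosomal RNA and sequenced as directional paired-end libraries. FPKM values of 27370 Ensembl transcripts (pig assembly Sscrofa10.2) were deposited by the authors; whether counting used strand is not given in the sources used here. The paper's methods name RSEM for FPKM, while the submitters' processing notes name HISAT2 2.0.1, StringTie 1.0.4 and DESeq2 1.6.3. Deposited transcript lengths and FPKM steps were used to estimate fragments: between 91.1% and 93.7% of low values were whole within 0.05. These fragments fed an alternative fit and are not raw counts.

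Symbols were paired for 3847 transcripts, 3133 from the study's miRNA target list, 631 from its list of differential transcripts and 83 from a gene name table. The second list was chosen on these samples, so a symbol is likelier for a transcript that differed.

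Transcripts with at least 0.5 FPKM in 8 of 16 libraries were tested on log2(FPKM + 1) with limma 3.58.1 in R 4.3.3 (phase, fecundity level as covariate, trend in the variance, Benjamini-Hochberg over all transcripts tested). The difference of the phase effects between fecundity levels was tested in a fit of 4 group means. Library measures were compared by exact two-sided permutation tests. Each library is 1 sow. The procedure was tested on simulated data.

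Named are, in each direction, the 12 called transcripts of smallest p with a symbol and a mean of 10 FPKM in the higher phase, the 3 per direction with the smallest p, all called list members, 14 genes whether called or not, and the 2 per direction with the smallest interaction p. The members and lists were chosen with earlier results of these data known. Alternatives were the pseudocount, the filter, the scaling, the variance trend, library weights, the covariate, a block on library number, voom, and leaving out each library. Some transcripts are not reported here.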

Additional observations from a re-analysis of the deposited data

Results flagged for a closer look

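Among 92 checks of the named transcripts in a phase, a single library lay far from the other 7 in 12, by a gap over the whole range above Dixon's critical value; chance gives about 1 in 20 for normally distributed values, a rate that cannot be applied here, since the values were FPKM and in 5 of the 12 the other 7 libraries were all at 0. LH2 was the library in 5 of the 12, low for 4 transcripts. It held 32444 FPKM of ND6 (other luteal libraries 116796 to 359912), 0 of TIMP1 (30.7 to 109), 55.8 of TMEM63A (304 to 968) and 0 of DUOXA1 (44.0 to 711), and it was the only luteal library above 0 for PTGIR, at 1.78 FPKM. FH4 was the library in 3: it was at 0 for GATA4 (others 4.93 to 11.4), at 2.66 FPKM for DUOX2 (others 0 to 0.81) and at 23.4 FPKM for ENSSSCT00000033896, which was at 0 in the others.

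In the other 4, FH1 was the only follicular library above 0 for TIMP1, at 10.8 FPKM, LL1 the only luteal library above 0 for CACNG1, at 5.62 FPKM, and LL3 the only luteal library above 0 for SMO, at 2.55 FPKM. FL4 held the lowest follicular value of ENSSSCT00000026166, 9.95 FPKM against 25.9 to 57.6. No explanation was tested.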

How the results depend on the processing

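Against 212 calls for the phase main effect as reported, 18 transcripts were called with no filter, 138 with a mean of 10 FPKM or more, 83 after median-ratio scaling, 31 after quantile normalization, 122 with no variance trend, 735 with library weights, 383 with voom and 13 to 787 with 1 library left out. The cause was not tested, except that fewer or more transcripts entered the tests under other filters. The interaction with fecundity, at 0 as reported, had 2 calls with a pseudocount of 0.1, 1 with a mean of 10 FPKM or more, 7 with voom and 0 to 5 with 1 library left out. The gene lists, with 12, had 2, 6, 7, 5, 30 and 24 with no filter, a mean of 10 FPKM or more, median-ratio scaling, quantile normalization, library weights and voom, and 1 to 31 with 1 library left out. Samples with the same number share only a number (24 pairs, correlation of deviations -0.0795 to 0.177, median -0.00823); with a replicate block 99 transcripts (80 higher, 19 lower) and 4 list members were called. After quantile normalization GATA6 differed by -0.41, turning sign. Of the named transcripts' results over the other settings, 95 lost and 9 gained a call; with a library left out 218 lost and 11 gained one, and none reversed. Detection and the share of the most abundant transcripts kept direction and side of the threshold throughout. Fragments per transcript limit what can be seen: most follicular-high calls rested on under 10 fragments per library.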
